A study of Homo sapiens with 12 samples.

Results

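The cytosolic ribosomal protein genes encode the proteins of the large subunit (symbols RPL and RPLP) and the small subunit (RPS) of the ribosome in the cytosol. The genes described are the protein-coding rows of the deposited table whose symbol is RPL, RPS or RPLP followed by a number and, where present, a letter A, X or L. The rule uses names alone and no measured value. It found 78 genes, 47 of the large and 31 of the small subunit, among 18668 genes listed. All 78 passed the filter on low counts, and the lowest count of any of them in any library was 1275 reads. The set includes the paralogs RPL39L and RPS27L. RPL3L and RPL10L were not analysed here.

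Each ribosome carries its proteins in fixed proportion around the ribosomal RNAs, with the peptidyl transferase centre on the large subunit and the decoding site on the small one. The mRNAs of these proteins are among the most abundant of a growing cell. Most begin with a 5′ terminal oligopyrimidine tract (5′ TOP), a C at the first base followed by a run of pyrimidines, through which mTORC1 signalling controls how actively they are translated. Sequencing of mRNA reads their level and not their translation.

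All libraries came from 22Rv1, an established human prostate carcinoma line that grows without androgen, given the genotype WT in the labels and cultured in RPMI-1640 with serum. The exposure lasted 24 h in every group. The agents were a targeted degrader, the antiandrogen enzalutamide, a ligand that activates autophagy, and vehicle. Each of the 4 groups had 3 libraries that the series describes as biologically independent. The labels gave no doses, and a single cell line was used.

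Start sites of genes named in the results are shown first, because the 5′ TOP is the sequence feature these mRNAs are known to share. No promoter entry was matched for RPL37, RPL39L and RPL5, which also changed with the degrader, so their start sites are not shown. The 30 bases run from 10 before the annotated start to the twentieth base of the transcript, 5′ to 3′ on the gene's strand, from RefSeq on GRCh38.p14. Capitals mark a C followed by 4 or more bases that are each C or T, beginning within 10 bases of the start. The first set holds genes that were higher with the degrader than with vehicle.
RPL10, chrX:154398367-154398396, plus strand: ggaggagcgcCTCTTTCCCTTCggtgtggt
RPLP0, chr12:120201092-120201121, minus strand: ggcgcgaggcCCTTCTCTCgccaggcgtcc
RPL13A, chr19:49487598-49487627, plus strand: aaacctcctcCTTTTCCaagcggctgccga
RPL28, chr19:55385922-55385951, plus strand: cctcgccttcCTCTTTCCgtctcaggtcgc
RPL4, chr15:66504836-66504865, minus strand: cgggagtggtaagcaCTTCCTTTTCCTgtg
RPL15, chr3:23917122-23917151, plus strand: aaggcattgtgggagtacagCTCTTTCCTT
RPS6, chr9:19380217-19380246, minus strand: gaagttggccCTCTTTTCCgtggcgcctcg
RPS26 was lower with the degrader, and RPS19 and RPL41 are genes of the fixed list that passed no threshold. RPS27L is a paralog in whose window no such run was found.
RPS26, chr12:56041908-56041937, plus strand: acataacctcgattttCTTCCgccatccgg
RPS19, chr19:41860245-41860274, plus strand: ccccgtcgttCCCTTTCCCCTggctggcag
RPL41, chr12:56116623-56116652, plus strand: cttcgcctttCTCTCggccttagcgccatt
RPS27L, chr15:63157458-63157487, minus strand: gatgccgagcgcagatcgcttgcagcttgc

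Promoter entries were matched by symbol for 62 of the 78 genes, with 77 promoters among them. The run began within 10 bases of the start in 63 of the 77 promoters, 81.8%, against 33.5% of the 35116 promoters in the table. A C at the first transcribed base opened such a run in 58.4% of promoters of ribosomal protein genes and in 4.07% of all promoters. Pyrimidines directly before that C were not excluded. On the opposite strand the windows within 10 bases held a run in 19.5% and 31.5%. By gene, 56 of 62 had a promoter with the run, and RPL6, RPL17, RPL27, RPS4X, RPS27L and RPS29 had none. The capitals begin at the first base in RPL10, RPLP0, RPL13A, RPL28 and RPS6, where a C also lies directly before the start. The capitals of RPS19 and RPL41 begin there too, with a T directly before the start. They begin at base 6 in RPL4, at base 7 in RPS26 and at base 11 in RPL15, counting the start as base 1.

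The 12 libraries held 55.5 to 77.2 M counted reads each. All 6 luminal prostate markers (KRT8, KRT18, HOXB13, KLK3, KLK2 and STEAP1) were listed. Their summed level was 1168 to 1279 CPM (reads per 1e6 counted, scaled by TMM factors) in degrader libraries, 1437 to 1590 CPM with enzalutamide, 1556 to 1721 CPM with the ligand and 1680 to 1862 CPM with vehicle, so the degrader libraries were lowest. Of 5 markers of other cell types, VIM and COL1A1 were listed, at 27.1 to 32.5 CPM summed with the degrader and 31.6 to 35.8 CPM with vehicle. Mitochondrially encoded genes took 8.80%, 8.50% and 9.20% of reads in degrader libraries, against 8.28%, 8.09% and 8.38% in vehicle libraries and at most 8.40% with the other compounds. The part of these shifts in the results on the degrader was not tested. The ribosomal protein genes themselves split the libraries by replicate number. All 78 stood highest in replicate 1 within the vehicle group, 76 within the degrader group, 71 within the enzalutamide group and 64 within the ligand group. Their median deviation from the group mean was 0.09 in degrader replicate 1, 0.10 in enzalutamide replicate 1, 0.09 in ligand replicate 1 and 0.12 in vehicle replicate 1 on the log2 scale, where the median over all genes tested deviated by at most 0.01. Other short genes did the same: 329 coding genes outside the set with an implied length under 1 kb had a median deviation of 0.07 to 0.09 in the first replicates. Comparisons below are therefore also given without the first replicates of all 4 groups, an alternative chosen after the data had been seen.

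Reads of the 78 genes were first summed per library. Their share of counted reads was 5.95%, 5.58% and 5.44% in the degrader libraries, 5.72%, 5.24% and 5.18% with enzalutamide, 5.64%, 5.40% and 4.99% with the ligand, and 5.59%, 5.06% and 4.98% with vehicle. The means were 5.65 ± 0.266% with the degrader, 5.38 ± 0.297% with enzalutamide, 5.34 ± 0.333% with the ligand and 5.21 ± 0.331% with vehicle (SD, n = 3 each). The degrader and vehicle libraries overlapped, and within each replicate number the degrader library had the highest share of the 4. No test was made on these sums. In bulk RNA a change of cell composition and a change of RNA per cell cannot be told apart.

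By subunit, large-subunit genes took 3.64 ± 0.170% of reads with the degrader, 3.43 ± 0.186% with enzalutamide, 3.40 ± 0.201% with the ligand and 3.32 ± 0.203% with vehicle. Small-subunit genes took 2.02 ± 0.0955% with the degrader, 1.95 ± 0.111% with enzalutamide, 1.94 ± 0.133% with the ligand and 1.89 ± 0.128% with vehicle. The ratio of large- to small-subunit reads was 1.804, 1.809 and 1.805 in the degrader libraries, against 1.758, 1.767 and 1.765 with enzalutamide, 1.735, 1.756 and 1.769 with the ligand, and 1.744, 1.751 and 1.773 with vehicle. The 3 degrader libraries stood above the 9 others. The means were 1.806 with the degrader and 1.756 with vehicle, and they still differed by 0.0359 to 0.0474 when any single one of RPLP0, RPL10, RPL13A, RPL3, RPL4 and RPS2 was left out. Without all 6, which were picked after the values were seen so that the choice itself narrows the difference, the ratio was 1.546 ± 0.00707 with the degrader and 1.542 ± 0.00864 with vehicle, and the libraries overlapped.

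**Figure D1:**
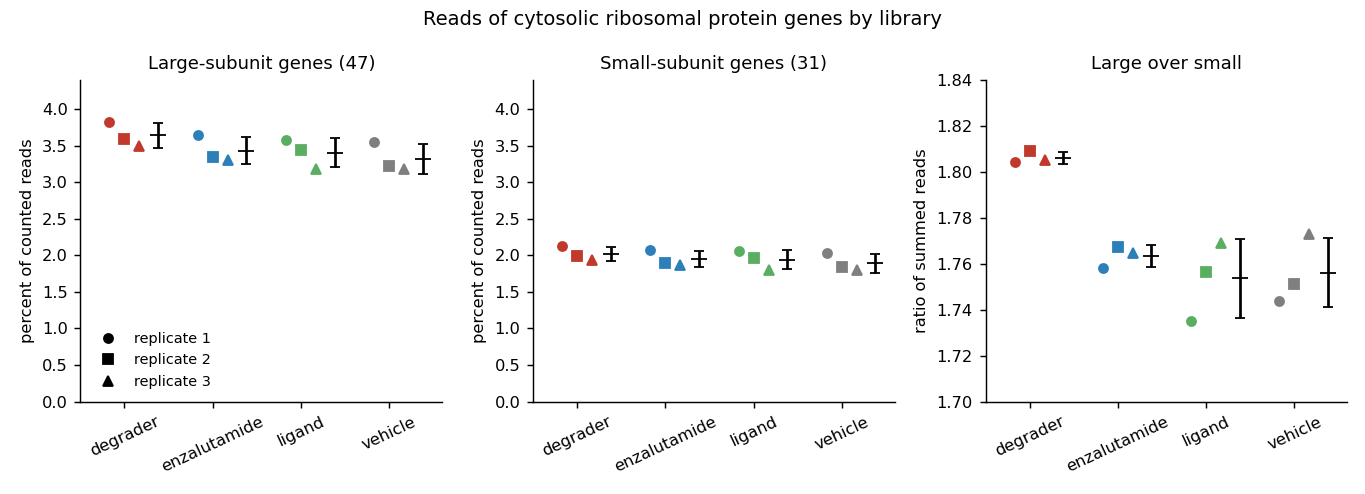
Percent of counted reads from the 47 large-subunit and 31 small-subunit genes and the ratio of the 2 sums in each library, with group mean and SD (n = 3); the ratio axis does not start at 0. Replicate 1 is the highest library of every group in both shares, and the 3 degrader libraries have ratios of 1.804 to 1.809, above the highest vehicle ratio of 1.773.

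Levels between genes can be compared per length, as fragments per kilobase and per 1e6 fragments (FPKM). In vehicle cells RPS2, a protein near the mRNA entry of the small subunit, was highest at 2336 ± 202 FPKM, followed by RPL41, a peptide of the large subunit, at 1906 ± 139.8 and RPLP0, the base of the ribosomal stalk, at 1868 ± 119. RPS27L at 7.35 ± 0.663 FPKM, RPL39L at 36.5 ± 1.82 and RPL14 at 71.0 ± 3.17 were lowest (SD, n = 3). Of 77 neighbours in this order, 68 had overlapping vehicle libraries, so most ranks are not separated. The medians were 640 FPKM over large-subunit and 647 over small-subunit genes. The deposited FPKM depends on the length the authors assigned: the length implied by count and FPKM was over 2 kb for 18 genes, among them 7.87 kb for RPL14 and 6.77 kb for RPS27L, so the ranks rest on those lengths. Within groups the SD of log2 CPM was 0.06 for RPL22 and 0.16 for RPL13, with a median of 0.10 over the 78 genes.

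The comparison of degrader with vehicle asked what the degrader did to this gene set. In edgeR's quasi-likelihood test with Benjamini-Hochberg adjustment over 17702 genes, 9 of the 78 genes were higher and 2 lower at an adjusted p under 0.05. These 11 make 14.1% of the set, where 32.7% of all genes tested were called (16.4% in each direction). In this fit the share called was below that of all genes. With the replicate number as a block, a second term in the fit, 33 genes were called. These were 42.3% of the set where 41% of all genes were called, so there the share was not below. The changes were small: log2 fold changes ran from -0.35 for RPL39L to 0.28 for RPL10, with a median of 0.08 where the median of all genes tested was 0.01. That median moved with single libraries: it was 0.03 without degrader replicate 1, 0.05 without vehicle replicate 2 or 3, and 0.14 without vehicle replicate 1. Leaving out a single library makes the groups unequal in replicate number. In fits that kept them equal it was 0.11 without the first replicates of all 4 groups and 0.08 with the block. The estimate was above 0 for 69 of the 78 (88.5%), where 50.9% of all genes tested were above 0. Against the same vehicle libraries it was above 0 for 67 of the 78 with the ligand and for 59 with enzalutamide. With the degrader a further 6 genes had an unadjusted p under 0.05, which makes 17 in all, against 42.1% of all genes. All degrader libraries lay above all vehicle libraries for 9 genes of the set and below them for 2, where 23.1% and 22.1% of all genes did so.

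Large-subunit genes supplied 8 of the 9 higher genes and small-subunit genes 1. Of 47 large-subunit genes, 8 were higher and 1 lower, and of 31 small-subunit genes, 1 was higher and 1 lower. The higher genes were 17% of the large and 3.23% of the small subunit, where 16.4% of all genes tested were higher. The large-subunit share was thus close to that of all genes. The median log2 fold change was 0.08 for the large and 0.07 for the small subunit, and both ranged over 0.03 to 0.14 when 1 library was left out (lowest without degrader replicate 1, highest without vehicle replicate 1). The difference between the subunits was not tested.

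**Figure D2:**
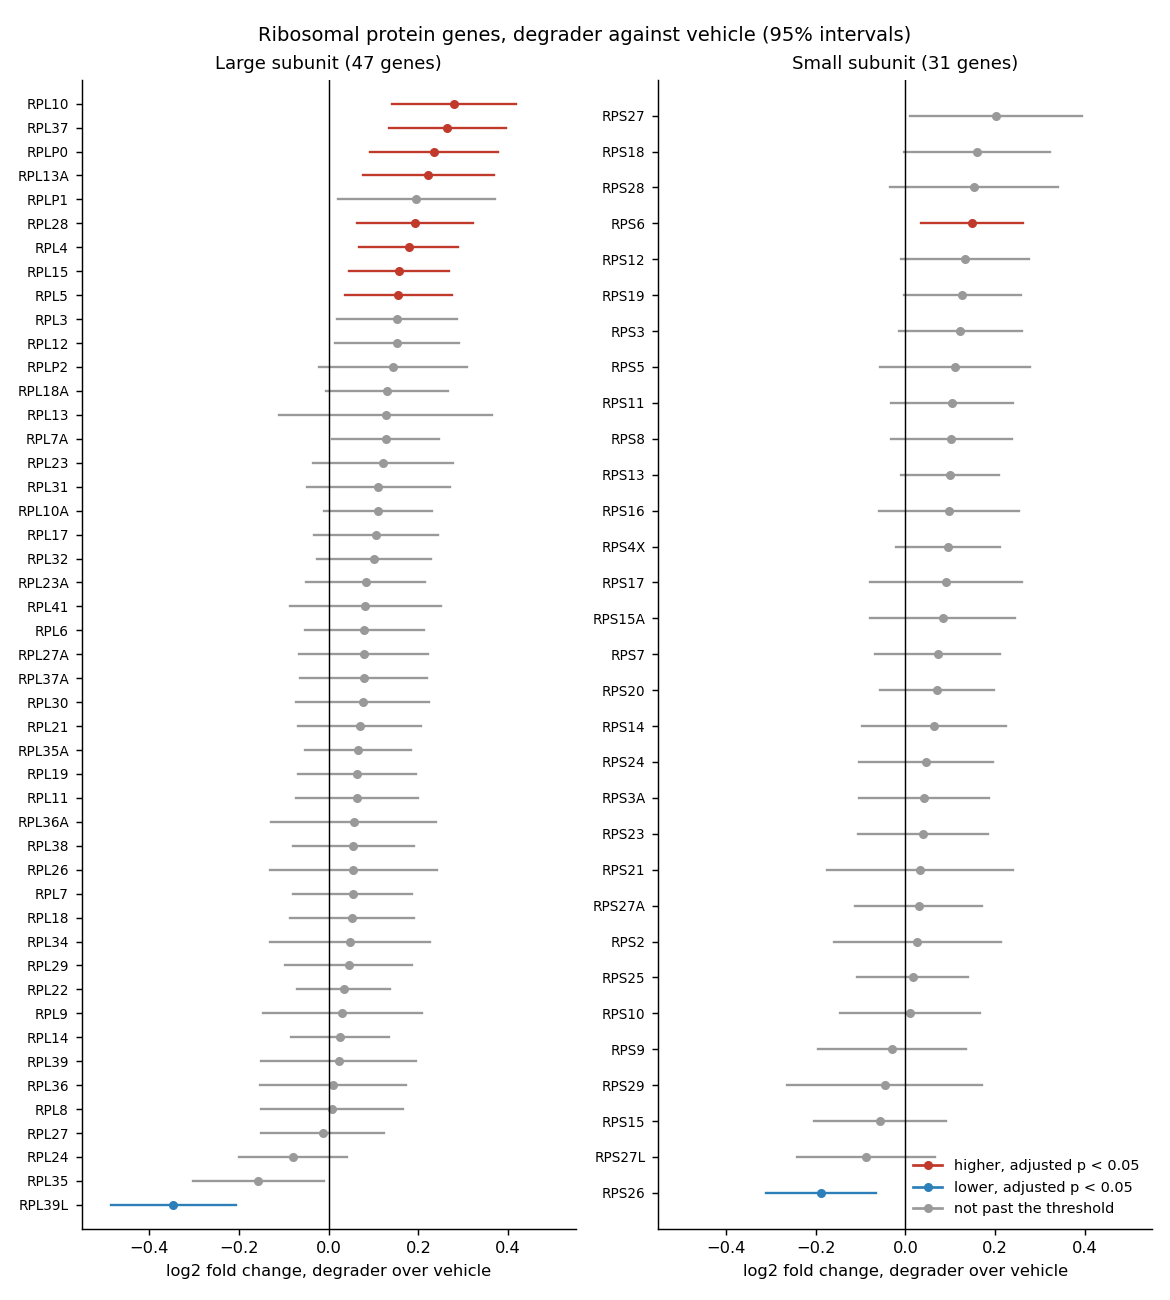
Log2 fold change of each ribosomal protein gene, degrader over vehicle, with its 95% confidence interval from edgeR (n = 3 each), large subunit left and small subunit right. The 9 higher genes are red, the 2 lower genes blue, and 69 of the 78 estimates lie right of 0, where 50.9% of all genes tested were above 0. Against the same vehicle libraries 67 of the 78 were above 0 with the ligand and 59 with enzalutamide.

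RPL10, which joins the large subunit late in its assembly and lies close to the peptidyl transferase centre, changed most upward. It stood at 988, 877 and 871 CPM in degrader libraries, against 809.6, 732 and 713 CPM in vehicle libraries. The groups did not overlap, and every degrader library was above every vehicle library. The log2 fold change was 0.28 ± 0.06 (SE; 95% interval 0.14 to 0.42; edgeR adjusted p = 0.0033). Enzalutamide libraries held 797, 740.4 and 718 CPM and ligand libraries 817, 781 and 713 CPM, both within or close to the vehicle range.

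RPL37, a zinc-binding protein of the large subunit, had 527, 459 and 469 CPM with the degrader, against 420.3, 388 and 403 CPM with vehicle. Again no degrader library fell into the vehicle range. Its log2 fold change was 0.26 ± 0.06 (SE; edgeR adjusted p = 0.0032). RPL10 and RPL37 were called in all 6 fits that each left out 1 degrader or vehicle library.

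The stalk is the flexible arm of the large subunit that recruits elongation factors. RPLP0, which anchors it, had 2935, 2587 and 2579.6 CPM with the degrader, against 2466, 2235 and 2185 CPM with vehicle. The groups did not overlap, with a log2 fold change of 0.23 ± 0.07 (SE; edgeR adjusted p = 0.013). RPLP1 and RPLP2, which form the arm, had log2 fold changes of 0.20 (95% interval 0.02 to 0.37; edgeR adjusted p = 0.0808) and 0.14 and did not pass the threshold. RPLP1 had 849.8, 746 and 756 CPM with the degrader, against 722, 672 and 659.8 CPM with vehicle.

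Other large-subunit genes that rose were RPL13A, RPL28, RPL4, whose protein lines the exit tunnel, and RPL15. RPL4 had 1903, 1800.3 and 1785 CPM with the degrader, against 1728, 1570.2 and 1552 CPM with vehicle, without overlap, and a log2 fold change of 0.18 (edgeR adjusted p = 0.0144). RPL13A rose by 0.22 on the log2 scale (edgeR adjusted p = 0.0204), though its lowest degrader library, 1594 CPM, lay within the vehicle range of 1387 to 1596 CPM. RPL28 rose by 0.19 (edgeR adjusted p = 0.0237), with 453 to 504 CPM in degrader and 399.6 to 437 CPM in vehicle libraries. RPL15, one of the genes mutated in Diamond-Blackfan anaemia, rose by 0.16 (edgeR adjusted p = 0.0297), with overlapping ranges of 1091 to 1194 CPM in degrader and 964 to 1099 CPM in vehicle libraries.

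RPL5 and RPL11 form the particle with 5S ribosomal RNA that also binds MDM2 when ribosome assembly fails. RPL5 had 826, 784 and 772 CPM with the degrader, against 755, 689.6 and 695 CPM with vehicle. It rose by 0.16 (edgeR adjusted p = 0.0439), close to the threshold. RPL11 had 607, 563 and 556 CPM with the degrader, against 604, 521 and 528 CPM with vehicle, and its log2 fold change of 0.06 had a 95% interval of -0.08 to 0.20. Whether the partners differed in response was not tested.

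RPS6, the small-subunit protein that S6 kinases phosphorylate downstream of mTORC1, was the sole higher gene of its subunit. It had 1198, 1132 and 1112 CPM with the degrader, against 1108, 1000.1 and 998 CPM with vehicle. The lowest degrader library was just above the highest vehicle library, and the log2 fold change was 0.15 ± 0.05 (SE; edgeR adjusted p = 0.0439). RPS27 had a larger estimate, 0.20, but a wider interval (0.01 to 0.39; edgeR adjusted p = 0.102), with 799.9, 739.8 and 731 CPM with the degrader, against 755, 613 and 608 CPM with vehicle.

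Of the lower genes, RPL39L, a paralog of RPL39 known for its high level in testis, changed most of all 78. It had 24.0, 23.9 and 21.7 CPM in degrader libraries, against 30.5, 29.9 and 28.1 CPM in vehicle libraries. Enzalutamide libraries (28.9 to 30.5 CPM) and ligand libraries (28.1 to 33.1 CPM) overlapped the vehicle libraries, and none of the 9 reached down to the degrader libraries. The log2 fold change was -0.35 ± 0.07 (SE; 95% interval -0.49 to -0.21; edgeR adjusted p = 0.000715), and the gene was called in all 6 fits that left out 1 library.

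RPS26, which lines the mRNA exit of the small subunit, had 329, 302 and 313 CPM with the degrader, against 378, 355 and 341 CPM with vehicle. The groups did not overlap, and RPS26 fell by 0.19 on the log2 scale (edgeR adjusted p = 0.0195). Reads counted on 15 RPS26 pseudogene rows came to 14.5% of its own, so part of its signal could be divided between copies. RPL35, which sits at the exit of the peptide tunnel, had 419, 393 and 373 CPM with the degrader, against 483, 423 and 416 CPM with vehicle, a log2 fold change of -0.16 that did not pass (edgeR adjusted p = 0.0969).

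**Figure D3:**
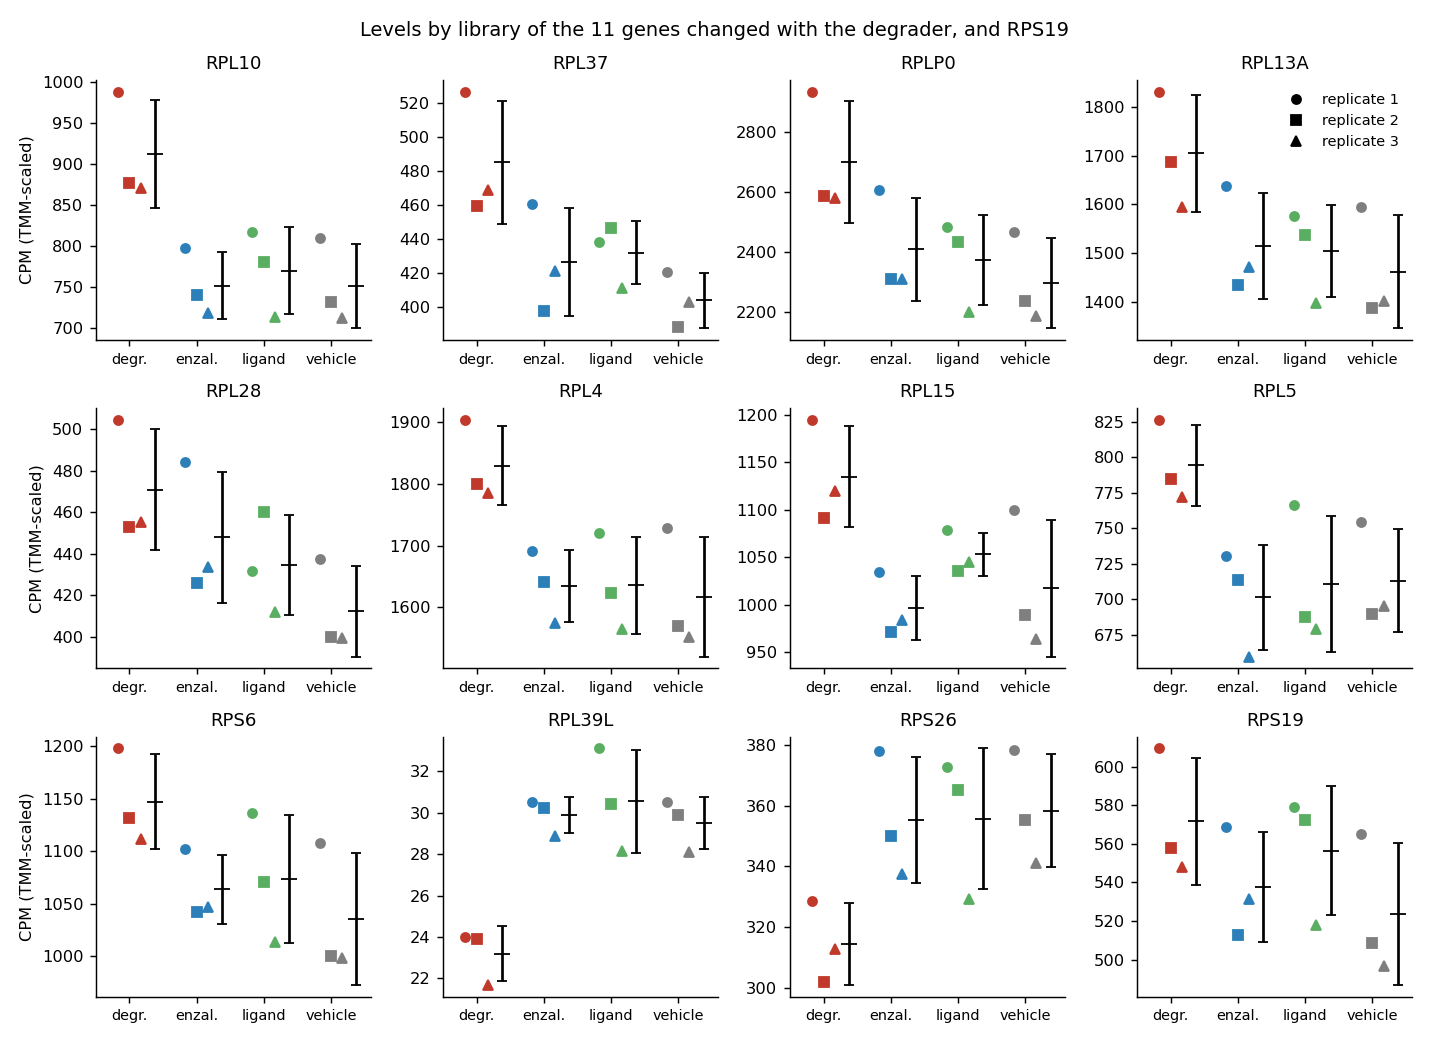
TMM-scaled CPM of the 11 genes changed with the degrader and of RPS19 in each of the 12 libraries, with group mean and SD (n = 3); axes do not start at 0. Degrader libraries of RPL10, RPL37, RPLP0, RPL28, RPL4, RPL5 and RPS6 lie above all vehicle libraries, and those of RPL39L and RPS26 lie below them.

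The other genes of the fixed list did not pass the threshold. RPS19, the gene most often mutated in Diamond-Blackfan anaemia, had 609, 558 and 548 CPM with the degrader, against 565, 509 and 496 CPM with vehicle. Its log2 fold change of 0.13 had a 95% interval that just included 0. RPS27A, made as a fusion with ubiquitin, had a log2 fold change of 0.03, RPL41 of 0.08, RPL22 of 0.03 and RPS27L of -0.09. RPL24 had -0.08 (95% interval -0.20 to 0.04), among the 5 lowest of the set. Of 18 genes of the set that are mutated in Diamond-Blackfan anaemia, 2 were higher (RPL5 and RPL15) and 1 lower (RPS26), which is 16.7% where 32.7% of all genes were called.

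How many genes passed depended on single libraries. Without vehicle replicate 1 the count was 17, and RPS26 was not among them. Without vehicle replicate 2, without vehicle replicate 3 and without degrader replicate 1 it was 4 each time, namely RPL10, RPL37, RPL39L and RPS26. Leaving out degrader replicate 2 gave 8, without RPL5, RPS6 and RPS26, and leaving out degrader replicate 3 gave 12. In these 6 fits 25.7% to 29.3% of all genes were called. Without the first replicates of all 4 groups, 13 genes passed, including the 11, which is 16.7% of the set where 22.8% of all genes were called. In the authors' deposited table the same 11 genes of the set had an adjusted p under 0.05 against vehicle, where that table called 34.9% of all genes with a value.

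Length moves with the degrader across the table. Among other coding genes with a mean of at least 10 CPM, those with an implied length under 1 kb had a median log2 fold change of -0.18 (329 genes), those of 1 to 2 kb -0.11, those of 2 to 4 kb -0.04 and longer ones 0.04. The median of the ribosomal protein genes, whose median implied length was 0.958 kb, was 0.08, above that of the short genes. The part of length in the values was not tested.

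Enzalutamide and the ligand were each set against the same vehicle libraries, so those 2 comparisons share their controls with the one above. With enzalutamide, 0 of the 78 genes passed in edgeR, where 1.44% of all genes did, and 0 had an unadjusted p under 0.05, where 9.88% of all genes did. DESeq2 and limma-voom also gave 0, where 2.21% and 1.38% of all genes passed. Log2 fold changes ran from -0.13 for RPL9 to 0.16 for RPS21 and RPLP2, and every 95% interval lay within -0.31 to 0.37. RPL9 had 525, 535 and 481 CPM with enzalutamide, against 631, 557 and 500.3 CPM with vehicle, which overlap. The medians were 0.04 over large-subunit and 0.02 over small-subunit genes, and their direction rested on single libraries. Both were negative without enzalutamide replicate 1 (-0.01 and -0.03), both were 0.09 without vehicle replicate 1 and 0.06 without enzalutamide replicate 2, they were 0.07 and 0.04 without enzalutamide replicate 3, and over all 78 genes the median was 0.01 without vehicle replicate 2 and 0.00 without vehicle replicate 3. Without the first replicates of all groups 0 genes passed, where 0.771% of all genes did.

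With the ligand, 0 of the 78 genes passed in edgeR, where 0.237% of all genes did, and 0 had an unadjusted p under 0.05, where 7.33% of all genes did. DESeq2 and limma-voom gave 0 too, where 0.684% and 0.226% of all genes passed. Log2 fold changes ran from -0.06 for RPS3A to 0.13 for RPS28, every 95% interval lay within -0.22 to 0.32, and the median was 0.04 in each subunit. The medians were -0.01 in each subunit without ligand replicate 1, 0.10 in each without vehicle replicate 1 and 0.09 and 0.10 without ligand replicate 3, and over all 78 genes 0.02 without vehicle replicate 2 and 0.00 without vehicle replicate 3. Without the first replicates of all groups 0 genes passed, where 0.13% of all genes did. RPS28 had 287, 321 and 260.2 CPM with the ligand, against 275, 261 and 256 CPM with vehicle. These libraries overlap. Pseudogene rows of RPS28 held 29.9% as many reads as the gene, the largest such share in the set. For RPL10 the log2 fold changes were 0.00 with enzalutamide (95% interval -0.14 to 0.14) and 0.04 with the ligand (-0.10 to 0.17). For RPL39L they were 0.02 (-0.12 to 0.16) and 0.05 (-0.09 to 0.19).

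**Figure D4:**
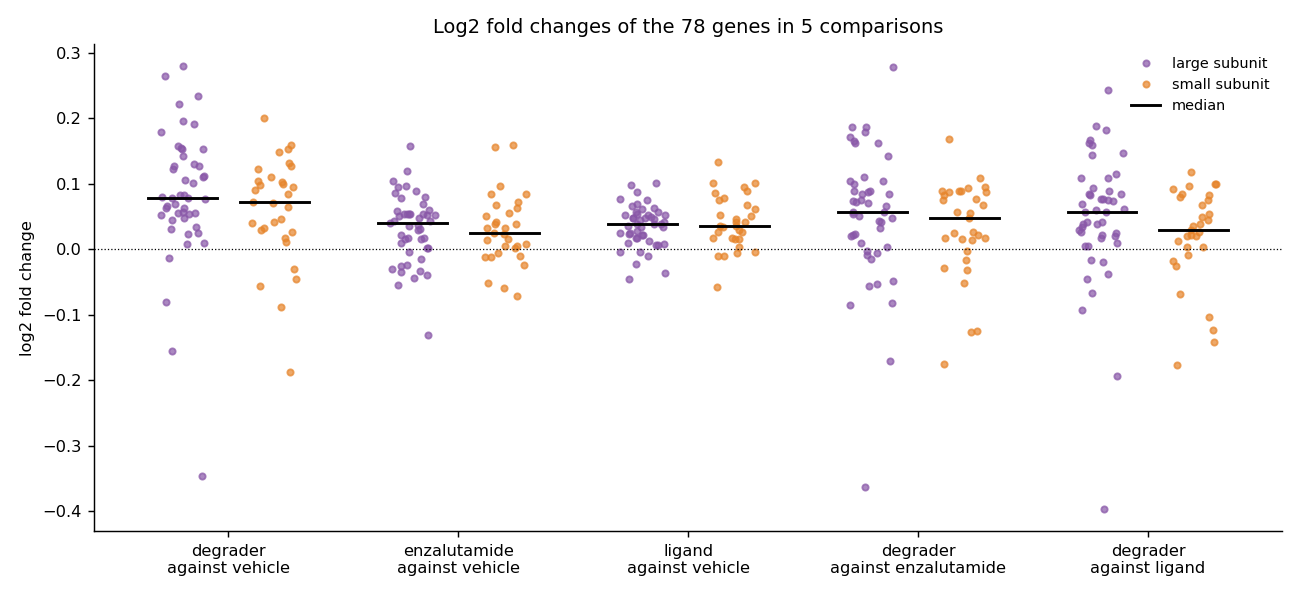
Log2 fold changes of the 47 large-subunit and 31 small-subunit genes in 5 comparisons, a point per gene, with the median of each subunit as a line. The comparisons of enzalutamide and ligand with vehicle lie between -0.13 and 0.16, and the lowest point of each comparison with the degrader, -0.35 to -0.40, is RPL39L.

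The degrader was also set directly against the other compounds. Against enzalutamide, 5 genes of the set were higher (RPL4, RPL5, RPL10, RPL15 and RPL37) and 2 lower (RPL39L and RPS26), which is 8.97% of the set where 32.3% of all genes were called (16.3% higher and 16.1% lower). RPL10 rose by 0.28 (95% interval 0.14 to 0.42; edgeR adjusted p = 0.00354) and RPL39L fell by 0.36 (edgeR adjusted p = 0.000485). RPS6 at 0.11 and RPLP0 at 0.17 did not pass. The count was 9 without enzalutamide replicate 1, 4 without enzalutamide replicate 3 and 4 without degrader replicate 1. In these fits 25.5%, 27% and 29.4% of all genes were called. Without the first replicates of all groups the count was 10, which is 12.8% of the set where 22.8% of all genes were called.

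Against the ligand, 4 genes were higher (RPL4, RPL5, RPL10 and RPLP0) and 3 lower (RPL35, RPL39L and RPS26), where 28.5% of all genes were called (14.3% higher and 14.2% lower). RPL10 differed by 0.24 (edgeR adjusted p = 0.00987) and RPL39L by -0.40 (95% interval -0.54 to -0.26; edgeR adjusted p = 0.000291). RPL35 had 419, 393 and 373 CPM with the degrader, against 483, 459 and 414 CPM with the ligand, and a log2 fold change of -0.19 (edgeR adjusted p = 0.0453). The ranges overlap. RPLP0 and RPL5 had edgeR adjusted p of 0.0466 and 0.0432. The count was 2 without ligand replicate 2, 3 without degrader replicate 1 and 3 without degrader replicate 2. In these fits 23.6%, 24.9% and 21.5% of all genes were called. Without the first replicates of all groups the count was 6, 7.69% of the set, where 19.3% of all genes were called. With DESeq2 size factors it was 2 higher and 3 lower, and with library totals alone 7 higher and 3 lower. Each of these scalings called 28.5% of all genes. Comparisons that include the degrader share its 3 libraries.

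Paralogs were read against their main copies within each library. The log2 ratio of RPL39L to RPL39 was -3.77, -3.59 and -3.76 in degrader libraries, against -3.43, -3.29 and -3.29 in vehicle libraries. RPL39 itself had 328, 288 and 295 CPM with the degrader, against 329, 292 and 275 CPM with vehicle. Thus the main copy overlapped between the groups and the paralog did not. RPS27L, a paralog known to be induced by p53, had a mean ratio to RPS27 of -4.01 with the degrader and -3.72 with vehicle. Paralogs with symbols outside the rule also had lower ratios with the degrader. The degrader minus vehicle difference in log2 ratio was -0.39 for RPL36AL over RPL36A, -0.24 for RPL22L1 over RPL22, -0.45 for RPL26L1 over RPL26 and -0.31 for RPL7L1 over RPL7.

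In each of the 6 pairs the ratio was lower in all degrader libraries than in all vehicle libraries. Of all single genes tested, 22.1% lay wholly below vehicle and 23.1% wholly above, and no such share was computed for ratios. A ratio also falls where the main copy rises. RPS27L itself had a log2 fold change of -0.09 (edgeR adjusted p = 0.384), where RPS27 had 0.20. In CPM, RPS27L and RPL22L1 overlapped between the groups, and the other paralogs did not. The exact two-sided permutation p was 0.1 for every pair, the smallest that 3 against 3 libraries allow, and 0.1 after adjustment over the 6 pairs. In the fit over all genes, RPL36AL fell by 0.33 (edgeR adjusted p = 0.00347), RPL26L1 by 0.39 (edgeR adjusted p = 0.000959) and RPL7L1, a protein of early large-subunit assembly, by 0.26 (edgeR adjusted p = 5.58e-05). RPL7L1 had 203, 205 and 205 CPM with the degrader, against 239.7, 248 and 246 CPM with vehicle. RPL22L1 had -0.21 and did not pass (edgeR adjusted p = 0.0656). Reads from near-identical copies could be split by the counting, which is not described in the sources used here.

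**Figure D5:**
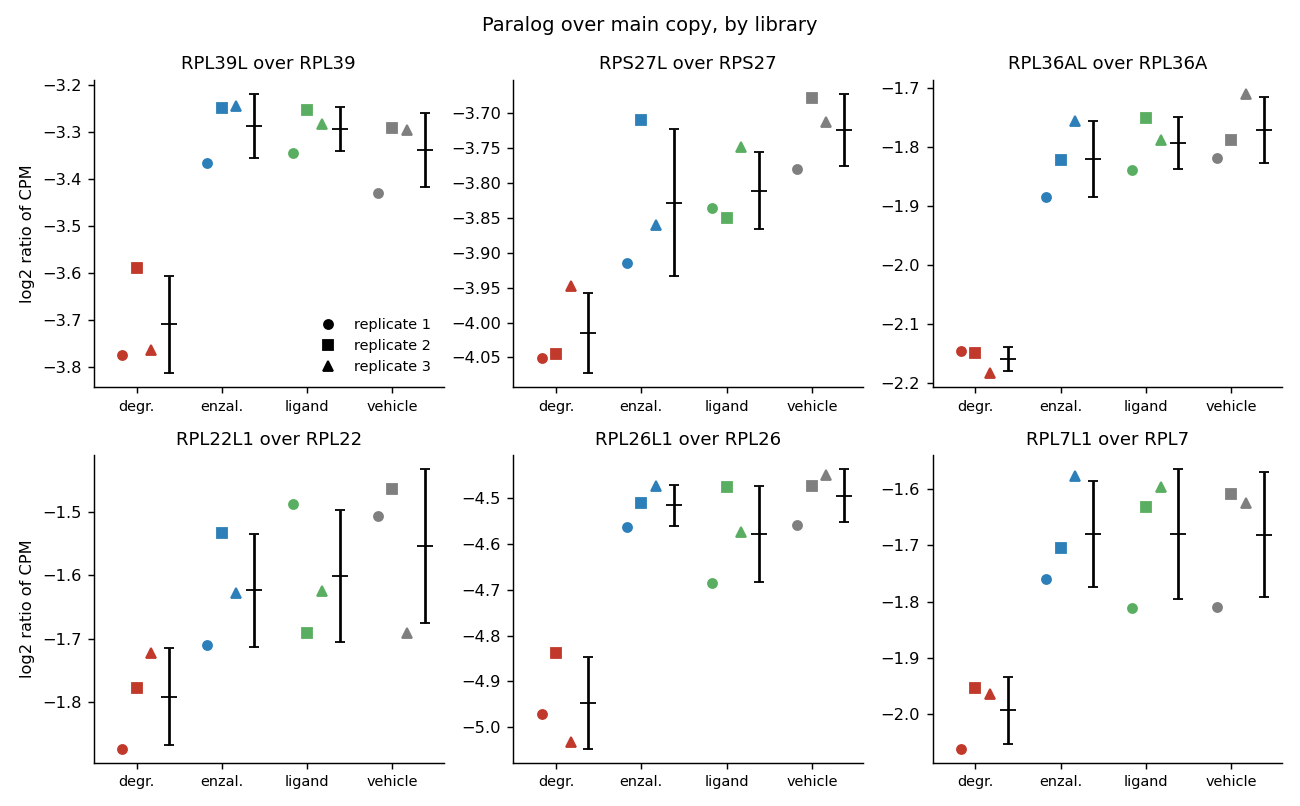
Log2 ratio of CPM of each paralog to its main copy in the 12 libraries, with group mean and SD (n = 3); axes do not start at 0. In all 6 pairs the 3 degrader libraries lie below the 3 vehicle libraries, by 0.24 to 0.45 between the means. A ratio also falls where the main copy rises, and the CPM of RPS27L and of RPL22L1 overlapped between these groups.

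Ribosomal proteins with symbols of another form include RPSA, FAU and RACK1. RACK1, a scaffold on the small subunit, had 1084, 942 and 987 CPM with the degrader, against 921, 830.1 and 849 CPM with vehicle, and rose by 0.21 (edgeR adjusted p = 0.0143). RPSA and FAU had log2 fold changes of 0.04 and -0.01 and did not pass.

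Translation factors and other genes taken as carrying a 5′ TOP gave a reference list of 25, which includes RPSA, FAU and RACK1. Whether each of the 25 has the run at its start site was not checked here. With the degrader against vehicle, 10 were higher and 2 lower (48% of the list, where 32.7% of all genes were called), and their median log2 fold change was 0.11. EEF1A1, which delivers aminoacyl-tRNA to the ribosome, had 8502, 7891 and 7746 CPM with the degrader, against 6664, 6106 and 6412 CPM with vehicle. It rose by 0.33 (edgeR adjusted p = 0.000113), more than any ribosomal protein gene. EIF3L, a subunit of initiation factor eIF3, had 339, 309 and 329 CPM with the degrader, against 274, 262 and 257 CPM with vehicle (edgeR adjusted p = 8.21e-05).

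EIF4B, which assists the helicase of initiation, rose by 0.21 (edgeR adjusted p = 0.00143). The other higher genes were EEF2, EIF3E, EIF3F, EIF3H, PABPC1, RACK1 and SLC25A6. EIF3K, another eIF3 subunit, fell by 0.21 (edgeR adjusted p = 0.0077), and NPM1, a nucleolar chaperone, fell by 0.19 (edgeR adjusted p = 0.00932). Subunits of eIF3 were thus found in both directions. Against enzalutamide 10 of the 25 were higher and 1 lower (44%, where 32.3% of all genes were called), and against the ligand 11 were higher and 1 lower (48%, where 28.5% were). EIF3K was the lower gene both times, and EEF1A1, EIF3L and EIF4B had the smallest p in both, with log2 fold changes of 0.28, 0.24 and 0.22 against enzalutamide and 0.32, 0.27 and 0.23 against the ligand.

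With enzalutamide against vehicle 0 of the 25 passed in edgeR, DESeq2 and limma-voom, and 1 had an unadjusted p under 0.05 (VIM, an intermediate filament, log2 fold change -0.20). EIF3E had -0.10. With the ligand 0 passed in the same tools and HNRNPA1 alone had an unadjusted p under 0.05 (log2 fold change -0.08), followed by NPM1 and NAP1L1, both at -0.08.

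Pseudogene copies bear on every level given here. The table listed 338 pseudogene rows for 69 of the 78 genes, and their reads summed to 2.83% to 3.37% of those of the genes in each library. The share passed 10% for 6 genes: RPS28, RPL41 (22.6%), RPL9 (22.4%), RPS26, RPL23A (13.5%) and RPL36A (11.4%). Pseudogene rows took 0.167 ± 0.00904% of reads with the degrader and 0.160 ± 0.0126% with vehicle (SD, n = 3), which overlap. Reads could have been assigned to a copy in place of the gene or the reverse, and this was not tested.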

How the data were processed

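Polyadenylated RNA of 12 libraries (4 groups of 3) was sequenced after preparation with a stranded mRNA kit, per the labels' protocols. HISAT2, StringTie and GRCh37 are named in the submitters' processing notes without versions, and the counting tool is not given in the sources used here. The authors deposited, per the file headers, a raw read count, an FPKM and a TPM for each gene and library, and a gene was listed where all 12 libraries had at least 1 read. The deposited TPM and log2 columns were not used. A signed fold change (a score in which a fall is minus the inverse ratio) was deposited by the authors beside an adjusted p-value for each compound against vehicle.

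Counts of 17702 genes kept by filterByExpr (minimum count 10, minimum total 15) were scaled by TMM (factors 0.987 to 1.016) and fitted with edgeR's robust quasi-likelihood model on all 12 libraries with group as the term, leaving 8 residual degrees of freedom. Genes were called at a Benjamini-Hochberg adjusted p under 0.05 over all genes tested. CPM are TMM-scaled. Levels between genes use the deposited FPKM. Totals were 55.5 to 77.2 M reads, where counting error is small beside the spread between replicates (chi-square per degree of freedom 5.40 to 22.0). All p-values measure the spread between libraries of 1 line. Software was edgeR 4.0.16 and limma 3.58.1 in R 4.3.3, with DESeq2 1.42.0 as an alternative. The model was tested on simulated data.

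The genes, lists and tests were chosen with earlier results of these data known. Named were a fixed list (RPLP0, RPLP1, RPLP2, RPL5, RPL11, RPS6, RPS27A, RPL41, RPS19, RPL22 and paralogs), the 5 highest and 5 lowest fold changes with the degrader against vehicle, and in other comparisons the genes called (6 with the smallest p where more passed); of the 5′ TOP list, the 3 with the smallest p. Other genes were named after their values were seen. A gene that the rule names is not reported here. Groups share replicate numbers: deviations of same-numbered libraries correlated over 0.1 in every pair for enzalutamide against vehicle alone (0.34, 0.11 and 0.20), where the fit with the number as a block called 0 of the 78 genes, as without it. Alternatives were other scalings, no filter, DESeq2, limma-voom, only the groups compared, the block, shares without mitochondrial genes, and each library left out. Promoters came from RefSeq (GRCh38.p14).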

Additional observations from a re-analysis of the deposited data

How the results depend on the processing

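Counts of ribosomal protein genes passing the threshold depended on the libraries, on the replicate block and, less so, on scaling and filter. For degrader against vehicle 9 passed with DESeq2 size factors, 9 with no filter and 15 with library totals alone. These were 11.5%, 11.5% and 19.2% of the set, where 32.6%, 30.7% and 32.7% of all genes passed. The DESeq2 test and limma-voom gave 11 each (14.1%), where 33.8% and 32.8% of all genes passed. RPL5 and RPS6 were each called in 7 of the 9 alternatives that did not leave out a single library. With the replicate number as a block, 33 genes passed for degrader against vehicle (30 higher, 3 lower, the 11 included), 42.3% of the set where 41% of all genes passed, so the share was not below that of all genes in this fit. The block gave 22 against enzalutamide (28.2%, where 40.8% of all genes passed), 19 against the ligand (24.4%, where 37.1% did), and 0 for enzalutamide and for the ligand against vehicle. Same-numbered libraries did not correlate over 0.1 in every pair of the comparisons with the degrader (0.40, 0.04 and 0.25 against vehicle), so these numbers are not taken as pairs there; 9 of 12 libraries were closest to a library of the same number, a hint from the data and not the design. Fitting only the groups compared gave 11 genes against enzalutamide (14.1%, where 35.5% of all genes passed) and 4 against the ligand (5.13%, where 23.5% did). Leaving out a library gave 4 to 17 genes for degrader against vehicle, 4 to 9 against enzalutamide and 2 to 5 against the ligand. In those fits, in the same order, 25.7% to 29.3%, 25.4% to 29.4% and 21.3% to 30.3% of all genes passed. Of the 5′ TOP list, 7 to 12 genes passed against enzalutamide. Without mitochondrially encoded genes the large-subunit share was 3.99% with the degrader, 3.74% with enzalutamide, 3.71% with the ligand and 3.62% with vehicle, and the small-subunit share was 2.21% with the degrader, 2.12% with enzalutamide, 2.12% with the ligand and 2.06% with vehicle. The ratio without the 6 genes, an alternative added after seeing the data, was 1.55 with the degrader, 1.55 with enzalutamide, 1.54 with the ligand and 1.54 with vehicle. The cause was not tested, except that fewer libraries or groups leave fewer data. No called result changed sign under the alternatives run; subunit medians, which had no test, did so with 1 library left out in every comparison but degrader against vehicle. Of the single named genes, 76 calls were lost and 38 gained over all alternatives, and 1911 stayed as they were. Limits are 3 libraries per group, replicate numbers of unknown meaning, the trend with length, changes of about the size of the spread between replicates, and reads that copies may share.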
